A study of Mus musculus with 14 samples.

Results

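Imprinted genes, which are transcribed mainly from the copy inherited from one parent, were examined in ribosome-bound RNA from a pair of mouse POMC neuron populations, POMC neurons marked through Lepr (POMC Lepr+) and POMC neurons marked through Glp1r (POMC Glp1r+). The 37 genes were chosen by name, as genes with known parent-of-origin expression in the mouse, with earlier results of these data known. All 37 were found among the 44672 genes of the authors' deposited table. Both groups were triple transgenic mice 12 weeks of age and randomly fed, from recombinase lines kept by breeding to C57BL/6N, POMCDre+/- LeprCre+/- ROSA26lSlrSrEGFPL10a+/- for POMC Lepr+ neurons (the Lepr+ line) and POMCDre+/- Glp1rCre+/- ROSA26lSlrSrEGFPL10a+/- for POMC Glp1r+ neurons (the Glp1r+ line), and they share the POMCDre transgene and the reporter allele. POMCDre is a bacterial artificial chromosome transgene that drives the Dre recombinase from the Pomc promoter, while LeprCre and Glp1rCre make Cre where Lepr or Glp1r is active. The ribosomal protein L10a fused to EGFP is made from the ROSA26 locus only in cells that carried both recombinases, at whatever age each was active, so that the anti-EGFP pulldown (IP) is drawn from ribosomes of the marked neurons, while the input is drawn from the tissue as a whole. The Lepr+ line gave 4 pools (6 mice each) and the Glp1r+ line gave 3 (12 mice each), with both sexes in equal number and 1 input and 1 IP library per pool. The paper describes whole hypothalami and the sample labels a dissected arcuate nucleus, so the tissue behind the input is not settled. Pool size and genotype differ together and cannot be told apart.

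Imprinted genes lie in clusters, and each cluster is governed by an imprinting control region that carries DNA methylation from the egg or from the sperm. Many clusters hold a long noncoding RNA that is made from one parental copy, and some of these RNAs silence neighbouring protein genes on the same chromosome. Several imprinted genes act in the hypothalamus on feeding, growth and hormone release. In humans, loss of the paternally expressed genes of the Snrpn cluster causes Prader-Willi syndrome, with overeating and obesity, and loss of maternal Ube3a expression in neurons causes Angelman syndrome. POMC neurons of the arcuate nucleus release melanocortin peptides that reduce food intake. Reads were not assigned to parental copies here, so the values below compare pulldown with input for the sum of both copies and say nothing about imprinting itself.

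The measure used throughout is the mean IP/input ratio, that is the number of reads in the IP divided by that in the input of the same pool, averaged over the pools of a line. By the values, 1 was added to each count. A gene is described as above input where this mean ratio is above 1 and as below input where it is under 1, and since single pools were not seen, a mean above 1 may rest on some of the pools. The ratio is no measure of how much RNA a gene makes, and it was not corrected for library depth. Read totals and values of single pools were not used here, so depth is not known, no spread between pools can be shown for a ratio, and whether pools of the lines overlap cannot be said. The error of each comparison is the standard error (SE) of the authors' log2 fold change, taken as Glp1r+ over Lepr+, and intervals are 95% intervals computed from it. Its p-values come from the Wald test of DESeq2 over the 7 pools, which sets the difference between the lines against a modelled variation between pools of mice. By the values, that test was run on the ratios times 1000, so it does not take up the number of reads behind a ratio. A gene is called here when its Benjamini-Hochberg adjusted p over all genes with a p-value was under 0.05. Fewer marked cells with a transcript and less of it per cell cannot be told apart in pooled tissue. All 6 POMC neuron markers had mean ratios above 1 in both lines, with Pomc at ratios of 239 in the Lepr+ and 81.6 in the Glp1r+ line, and the 6 astrocyte, 6 oligodendrocyte and 5 microglia markers all lay below 1 in both lines, from 0.234 to 0.677. Markers of other cells were mixed. Of 6 endothelial and mural markers 1 was above 1 in both lines (Pecam1 at 1.79 and 1.23) and 2 were below 1 in both, over ranges of 0.454 to 1.95 and 0.391 to 1.23. Of 10 pituitary markers 2 were above 1 in both lines (Prl at 2.02 and 1.06, Tbx19 at 1.54 and 6.94) and 5 were below 1 in both, over ranges of 0.359 to 2.02 and 0.661 to 6.94. None of these markers was called, and Kcnj8, a mural marker, and Prl had no p-value in the table. Their part in the values of the imprinted genes was not tested. The median over 18395 protein-coding genes, leaving out those at exactly 1 in both lines, was 1.06 in the Lepr+ and 1.17 in the Glp1r+ line.

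Of the 37 imprinted genes, 3 were called between the lines in the authors' DESeq2 analysis (8.11%), beside 2.11% of all 43199 genes with a p-value. Slc22a18 and Asb4 were higher in the Lepr+ line, a direction in which 0.836% of all genes were called, and Copg2 was higher in the Glp1r+ line, a direction in which 1.28% were called. A further 4 genes, Peg10, Plagl1, Mkrn3 and Mest, had an unadjusted p under 0.05 only, so that 7 of 37 (18.9%) reached that level, beside 10.2% of all genes. The shares over all genes include genes at exactly 1 in both lines, and none of the 37 was such a gene. Without those genes, 3.02% of 30197 were called (551 higher in the Glp1r+ and 361 in the Lepr+ line), and 3.14% of the 17844 protein-coding genes. An unadjusted p under 0.05 was reached by 2489 of the 30197 higher in the Glp1r+ and 1937 higher in the Lepr+ line. These shares are counts, the 37 genes were chosen with earlier results of these data known, and no test over the list was made. For 27 of the 37 genes the ratios of the lines were within 1.5-fold of each other, and the median log2 fold change of the 37 was -0.11. A ratio above 1 in both lines was found for 21 genes and a ratio below 1 in both for 10. Of the 31670 genes with a ratio other than 1, 11306 were above 1 in both lines and 9920 below 1 in both.

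**Figure D1:**
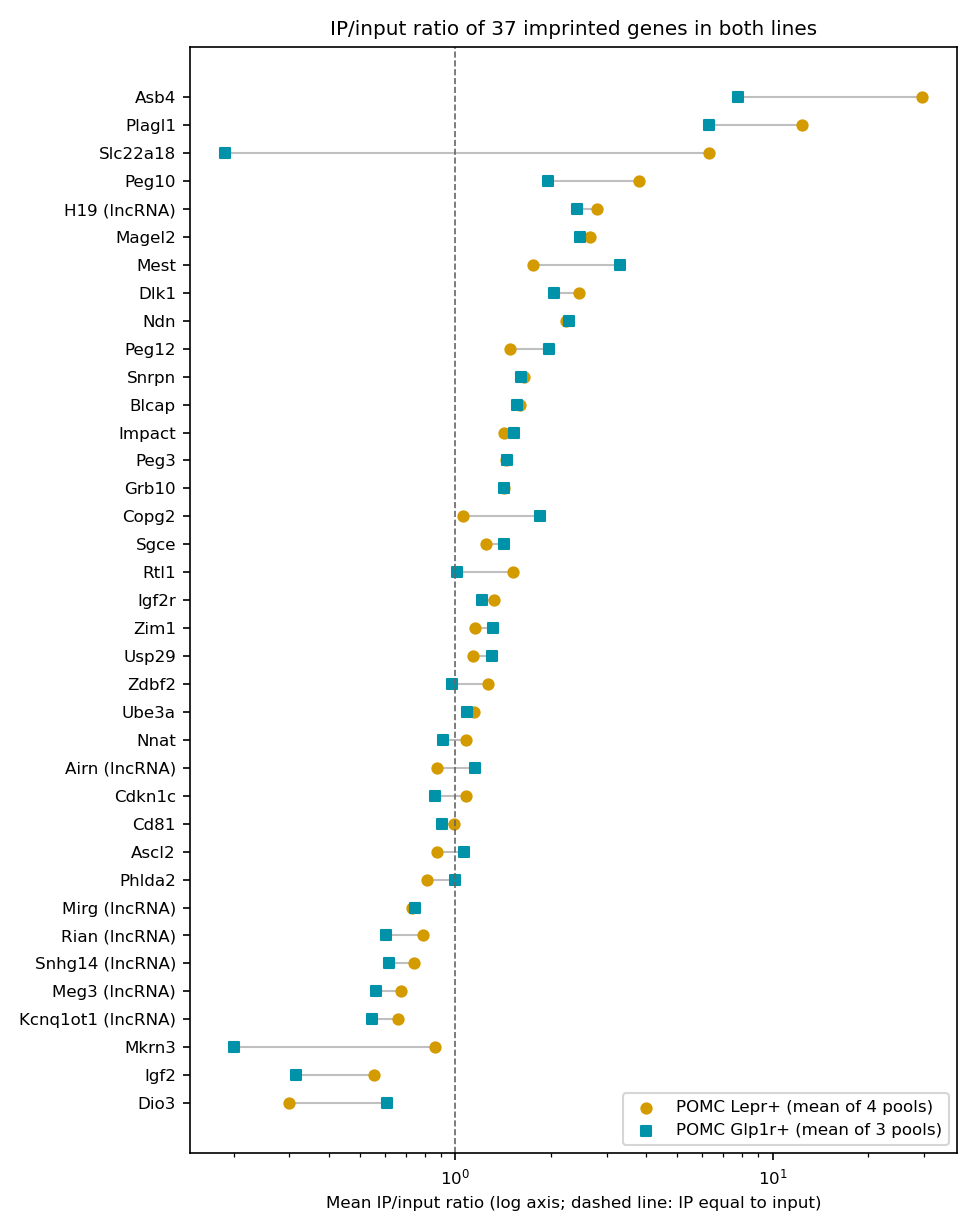
Mean IP/input ratio of each of the 37 imprinted genes on a log axis, as a circle for the Lepr+ line (4 pools) and a square for the Glp1r+ line (3 pools), with the genes ordered by their mean over the pools. Asb4 stands highest in both lines at 29.6 and 7.77, the line joining the points is longest for Slc22a18 (6.29 and 0.188), and 5 of the 7 long noncoding RNAs lie left of the dashed line of equal IP and input in both lines. Values of single pools were not used here, so no spread of a ratio is drawn.

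Promoter windows of the 3 called genes, and of Mest, the neighbour of Copg2 that had an unadjusted p under 0.05 in the same direction, are printed to show the sequence from which these transcripts start. Each holds 250 bases before and 50 after a transcription start in RefSeq on GRCm38.p6, and is written 5′ to 3′ on the strand of the gene. Capitals mark the hexamer TGCCGC or its reverse complement GCGGCA. In its methylated form this hexamer is bound at imprinting control regions by ZFP57, a KRAB zinc finger protein that keeps their methylation in the early embryo. Slc22a18 (chr7:143473539-143473838, plus strand) and Asb4 (chr6:5383136-5383435, plus strand, 1 of its 2 windows) hold no copy, Copg2 (chr6:30896745-30897044, minus strand) holds 1 and Mest (chr6:30737800-30738099, plus strand, 1 of its 3 windows) holds 2.
Slc22a18: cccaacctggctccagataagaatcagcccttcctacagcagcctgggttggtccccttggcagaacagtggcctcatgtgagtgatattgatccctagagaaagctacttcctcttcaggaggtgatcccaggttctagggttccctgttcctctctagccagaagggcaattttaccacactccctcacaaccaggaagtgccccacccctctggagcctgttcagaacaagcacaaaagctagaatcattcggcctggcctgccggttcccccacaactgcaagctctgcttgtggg
Asb4: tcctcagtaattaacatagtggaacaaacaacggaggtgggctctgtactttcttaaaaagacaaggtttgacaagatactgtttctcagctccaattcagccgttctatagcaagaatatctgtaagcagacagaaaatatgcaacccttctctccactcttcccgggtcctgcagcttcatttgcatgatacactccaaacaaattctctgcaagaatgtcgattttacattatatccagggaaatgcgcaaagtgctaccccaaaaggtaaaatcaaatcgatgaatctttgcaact
Copg2: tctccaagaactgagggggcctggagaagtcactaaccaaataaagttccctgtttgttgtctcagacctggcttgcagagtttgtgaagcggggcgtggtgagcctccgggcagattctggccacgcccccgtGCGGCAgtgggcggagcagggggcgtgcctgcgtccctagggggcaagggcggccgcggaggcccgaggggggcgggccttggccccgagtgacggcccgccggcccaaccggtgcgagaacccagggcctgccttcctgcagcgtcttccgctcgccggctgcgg
Mest: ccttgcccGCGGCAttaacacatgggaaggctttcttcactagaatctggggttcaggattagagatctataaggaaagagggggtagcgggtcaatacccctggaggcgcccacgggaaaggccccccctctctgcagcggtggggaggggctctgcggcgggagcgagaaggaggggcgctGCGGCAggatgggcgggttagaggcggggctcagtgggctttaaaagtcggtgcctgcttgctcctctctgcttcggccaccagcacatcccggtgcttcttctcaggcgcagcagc
The printed windows of Slc22a18 and Asb4 hold 2 and 6 CpG dinucleotides, while those of Copg2 and Mest hold 25 and 17. The other window of Asb4 holds 8 CpG dinucleotides and no copy of the hexamer. The other windows of Mest hold 8 and 17 CpG dinucleotides, with 0 and 2 copies of the hexamer. Searched on both strands, at least 1 copy was found in 10 of the 31 imprinted genes with a window (32.3%) and in 3527 of all 27025 genes with one (13.1%). By window these were 11 of 43 (25.6%) and 3813 of 32851 (11.6%). The imprinted genes also had more CpG dinucleotides in their richest window, with a median of 17 beside 8 for all genes, and the hexamer itself contains a CpG. A match is a description of the sequence and shows no binding.

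Slc22a18 (ENSMUSG00000000154), a transporter-like protein of the organic cation family and maternally expressed, differed most between the lines. It lies on chromosome 7 from 143473736 to 143499334 on the plus strand (GRCm38, GENCODE M21), in the cluster governed by the noncoding RNA Kcnq1ot1. Its mean IP/input ratio was 6.29 in the Lepr+ and 0.188 in the Glp1r+ line. The ratio was 33.4-fold higher in the Lepr+ line (interval 10.2 to 109), a log2 fold change of -5.06 ± 0.87 (SE, n = 4 and 3 pools) with an adjusted p of 5.27e-06 in the authors' DESeq2 Wald test. Among the 18395 protein-coding genes it ranked 215 in the Lepr+ and 18276 in the Glp1r+ line and was above input in the one and below it in the other. With 1 added to whole counts, its sums of ratios over both lines cannot arise from fewer than 6 reads in every library. The Lepr+ ratio of Slc22a18 is by itself too high for that, so this does not bear on the reads of the Glp1r+ line. Its actual read numbers are not known.

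The other 5 imprinted genes of the Kcnq1ot1 cluster had no call. Kcnq1ot1 itself, a long noncoding RNA of the paternal copy that silences its neighbours in cis, had ratios of 0.658 and 0.546 in the Lepr+ and Glp1r+ lines. Cdkn1c, an inhibitor of cyclin-dependent kinases that limits growth, had 1.08 and 0.863, with a wide interval of the fold of Glp1r+ over Lepr+ (0.301 to 2.12) and 30.7% of its exon bases shared with an antisense gene. Cd81, a tetraspanin of the cell surface, had 0.993 and 0.910. Phlda2, which restrains growth of the placenta, had 0.813 and 1.00, and Ascl2, a transcription factor of the trophoblast, had 0.875 and 1.07. The sums of both Phlda2 and Ascl2 are ones that fewer than 6 reads in every library can give. Of the other imprinted genes of this stretch of 790 kb, Kcnq1, a potassium channel subunit, had 4.03 in the Lepr+ and 0.667 in the Glp1r+ line and no p-value in the table. The Glp1r+ sum of Kcnq1 is one that fewer than 6 reads in every library of that line can give. Tspan32 (1.08 and 0.456), Tssc4 (1.32 and 1.78), Nap1l4 (1.44 and 1.74), Tnfrsf23 (0.732 and 0.329) and Osbpl5 (1.02 and 1.28) were not called. The sums of Tspan32 are also ones that fewer than 6 reads in every library can give. Slc22a18 was the single gene of this cluster called among those listed here.

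Asb4 (ENSMUSG00000042607), a SOCS-box protein of ubiquitin ligases that is known from arcuate neurons and is maternally expressed, had the highest ratio of the imprinted genes in both lines. It lies on chromosome 6 from 5383386 to 5433022 on the plus strand. The mean IP/input ratio was 29.6 in the Lepr+ and 7.77 in the Glp1r+ line, which placed Asb4 at ranks 34 and 87 of 18395 protein-coding genes. It was 3.81-fold higher in the Lepr+ line (interval 2.19 to 6.63), with a log2 fold change of -1.93 ± 0.41 (adjusted p = 0.00057) in the authors' DESeq2 Wald test. Asb4 was thus above input in both lines, and the difference between them passed the threshold. The 6 POMC neuron markers all had negative log2 fold changes as well, with a median of -1.15 and 1 of them called. Their ratios ran from 3.19 to 239 in the Lepr+ and from 2.92 to 81.6 in the Glp1r+ line, and their part in the values of Asb4, Slc22a18, Plagl1 and Peg10, which were higher in the same line, was not tested.

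Plagl1 (ENSMUSG00000019817), a zinc finger transcription factor that restrains cell division and regulates other imprinted genes, followed Asb4 in the order of ratios. It had 12.4 in the Lepr+ and 6.31 in the Glp1r+ line, at ranks 94 and 137 of the protein-coding genes. The ratio was 1.97-fold higher in the Lepr+ line (interval 1.03 to 3.74), and with an adjusted p of 0.432 in the authors' DESeq2 Wald test (unadjusted p = 0.0395) it was not called.

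The Peg10-Sgce cluster of chromosome 6, to which Asb4 belongs, held several genes with higher ratios in the Lepr+ line. Peg10 (ENSMUSG00000092035, 4747306 to 4760517, plus strand), a paternally expressed gene derived from a retrotransposon, had 3.80 in the Lepr+ and 1.96 in the Glp1r+ line. It was 1.94-fold higher in the Lepr+ line (interval 1.29 to 2.92), a log2 fold change of -0.95 ± 0.30 with an adjusted p of 0.0644 in the authors' DESeq2 Wald test, just outside the threshold. With p-values adjusted over genes with a ratio other than 1 its adjusted p was 0.0451, and with fold changes centred on the median of those genes it was 0.0454, so Peg10 passed under both settings. Sgce, epsilon-sarcoglycan, which shares a promoter region with Peg10 and is read in the opposite direction, had 1.25 and 1.43 and a log2 fold change of 0.19 ± 0.35. Peg10 and Sgce, both paternally expressed, thus had log2 fold changes of opposite sign, a difference between genes that was not tested.

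Other imprinted genes within the 1747 kb from Calcr to Asb4 were listed beside these. Ppp1r9a, neurabin, an actin-binding protein of synapses that lies between Peg10 and Asb4, had 5.46 in the Lepr+ and 1.79 in the Glp1r+ line and was called, 3.05-fold higher in the Lepr+ line (interval 2.02 to 4.61, adjusted p = 4.51e-05, authors' DESeq2 Wald test). Pon2, a paraoxonase, had 2.05 and 0.993, with an adjusted p of 0.0915 in the same DESeq2 test. Its neighbour Pon3 had similar ratios of 6.62 and 5.95, and Casd1, an acetyltransferase of sialic acid, had 1.46 and 1.32. Tfpi2, a protease inhibitor, had 0.875 and 1.00, with sums that fewer than 3 reads in every library can give. Calcr, the calcitonin receptor, had 0.878 and 1.49. Of the 9 imprinted genes listed from Calcr to Asb4, 2 were called, both higher in the Lepr+ line (0.836% of all genes were called in this direction). The list does not hold every gene of the stretch, so this is no call rate of the stretch. Col1a2, a leptomeningeal fibroblast marker that lies within it, had 1.00 and 0.513 and was not called.

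**Figure D2:**
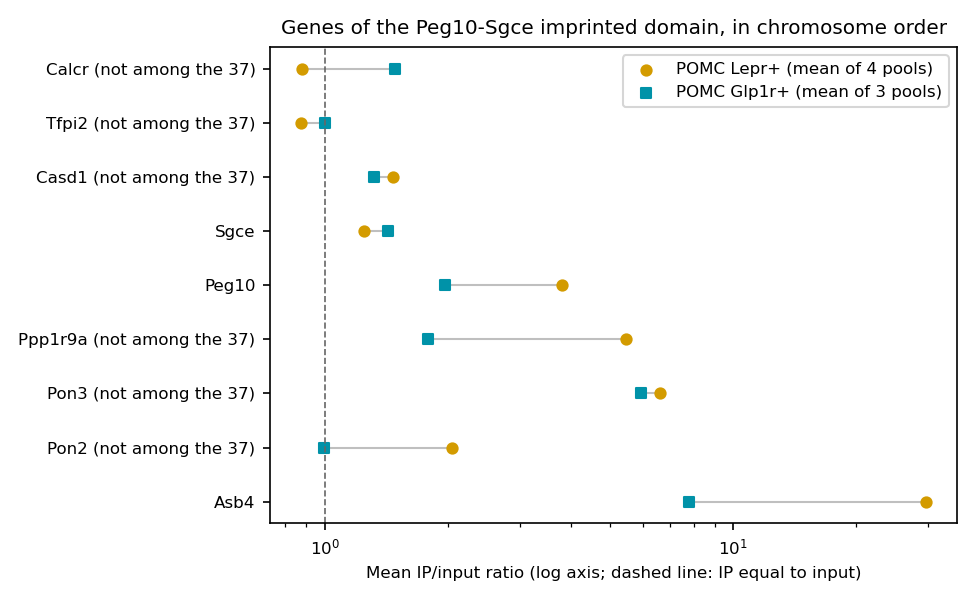
Mean IP/input ratio on a log axis of the 9 genes of the Peg10-Sgce imprinted cluster listed here, in chromosome order from Calcr (top) to Asb4 (bottom), as a circle for the Lepr+ line (4 pools) and a square for the Glp1r+ line (3 pools). Peg10 (3.80 and 1.96), Ppp1r9a (5.46 and 1.79), Pon2 (2.05 and 0.993) and Asb4 (29.6 and 7.77) show the wide gaps towards the Lepr+ line, of which those of Ppp1r9a and Asb4 were called.

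Copg2 and Mest, which lie tail to tail on chromosome 6, were the imprinted genes with higher ratios in the Glp1r+ line at an unadjusted p under 0.05. Copg2 (ENSMUSG00000025607, 30747554 to 30896794, minus strand), a coat protein of transport vesicles between the Golgi apparatus and the endoplasmic reticulum and maternally expressed, had 1.06 in the Lepr+ and 1.85 in the Glp1r+ line. It was 1.75-fold higher in the Glp1r+ line (interval 1.26 to 2.44), a log2 fold change of 0.81 ± 0.24 with an adjusted p of 0.0463 in the authors' DESeq2 Wald test. Copg2 lies just inside the threshold, and the call was lost when fold changes were centred on the median of genes with a ratio other than 1 (adjusted p = 0.0718), a shift of 0.05 on the log2 scale. Mest (ENSMUSG00000051855, 30723547 to 30748465, plus strand), a hydrolase-like protein of the endoplasmic reticulum that is paternally expressed, had 1.75 and 3.31. The ratio of Mest was 1.89-fold higher in the Glp1r+ line (interval 1.18 to 3.03) and was not called (adjusted p = 0.176, unadjusted p = 0.00781, authors' DESeq2 Wald test). The genes overlap by 912 exon bases on opposite strands, which is 17.8% of the exon bases of Copg2 and 23.1% of those of Mest. The sources used here do not say that strand was used in counting, so reads of this stretch cannot be assigned to one gene, and the values of both are uncertain to that extent. Of the 7 pan-neuronal markers 4 also had higher ratios in the Glp1r+ line at an unadjusted p under 0.05 and none was called, over a range of 0.518 to 2.02 in the Lepr+ and 1.12 to 1.79 in the Glp1r+ line, and their part in the values of Copg2 and Mest was not tested. Klf14, an imprinted transcription factor gene beside Copg2, had 2.69 and 3.37 and was not called, with an SE of the log2 fold change of 0.89.

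**Figure D3:**
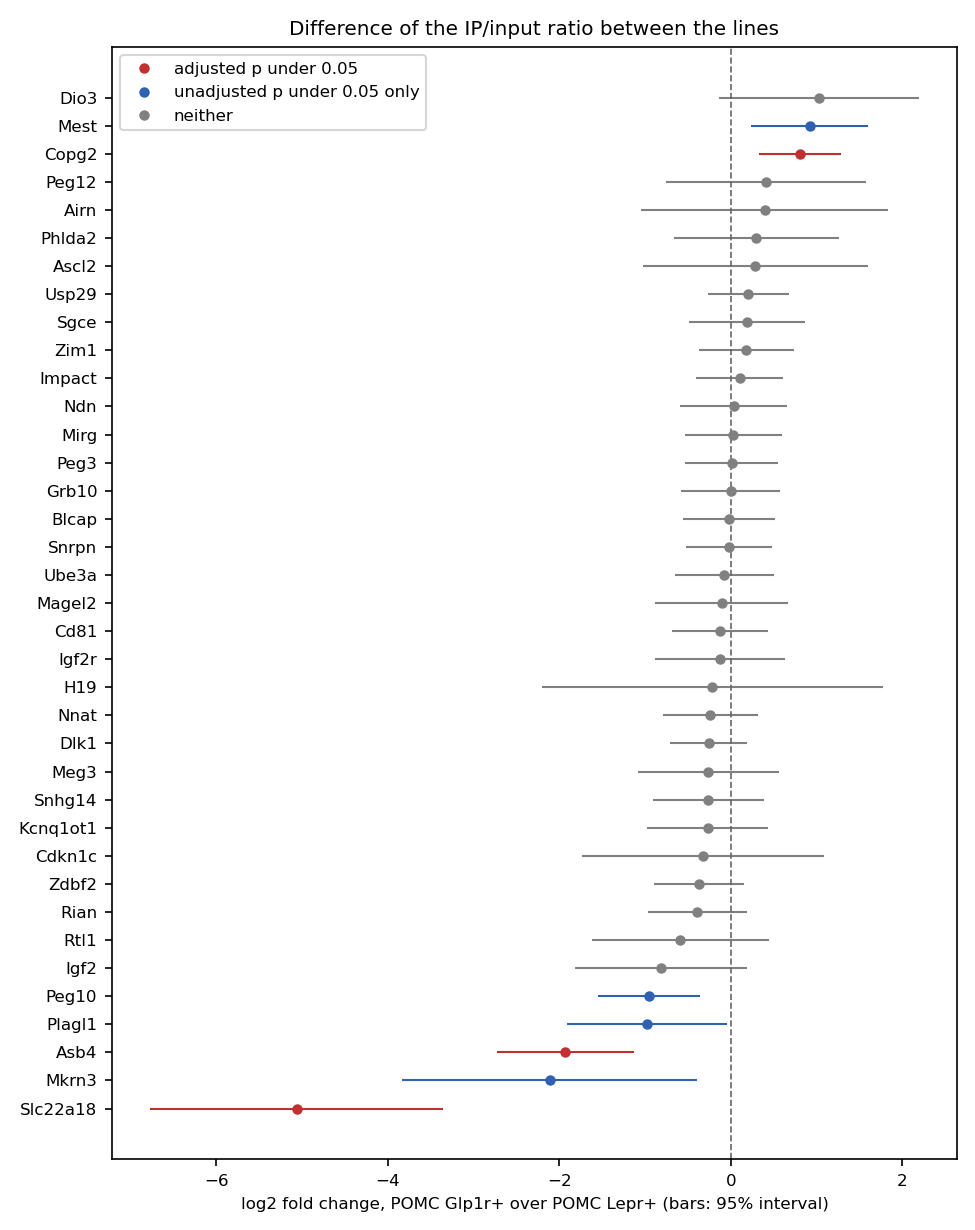
Log2 fold change of the IP/input ratio in Glp1r+ over Lepr+ for the 37 imprinted genes, from the authors' deposited table, with bars for the 95% interval computed from its SE over 4 and 3 pools. Slc22a18 (-5.06), Asb4 (-1.93) and Copg2 (0.81) had an adjusted p under 0.05, Peg10, Plagl1, Mkrn3 and Mest an unadjusted p under 0.05 only, and the bars of the other 30 genes cross 0.

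Among the 37 genes, the protein genes of the Prader-Willi cluster on chromosome 7 had ratios within 1.5-fold of each other in the lines, with the exception of Mkrn3. Magel2 and Ndn, MAGE-family proteins that act in hypothalamic neurons, had ratios of 2.66 and 2.24 in the Lepr+ line. In the Glp1r+ line Ndn had 2.29 and Magel2 had 2.46, at ranks 1026 and 854 of the protein-coding genes. The interval of the fold of Glp1r+ over Lepr+ ran from 0.541 to 1.59 for Magel2 and from 0.663 to 1.58 for Ndn, so changes of up to about that size remain possible. Snrpn, a spliceosomal Sm protein of neurons, had 1.64 and 1.61, and Snurf, which is read from the same transcripts and shares exon bases with it, had 3.42 and 3.46. Peg12, an intronless gene of the FRAT family of Wnt regulators, had 1.48 and 1.97 with a wide interval of the fold (0.591 to 2.98). Ube3a, the ubiquitin ligase of Angelman syndrome, had 1.14 and 1.09, and its neighbour Atp10a, a phospholipid flippase, had 1.65 and 1.09. Magel2, Ndn, Snrpn, Peg12 and Ube3a were thus above input in both lines and none was called.

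Mkrn3, a zinc finger protein and ubiquitin ligase whose loss brings early puberty in humans, had 0.865 in the Lepr+ and 0.200 in the Glp1r+ line. The ratio was 4.32-fold higher in the Lepr+ line with an interval of 1.31 to 14.3, with 0.268 as its adjusted p (unadjusted p = 0.0163, authors' DESeq2 Wald test). It was below input in both lines, unlike its neighbours Ndn and Magel2, and 0.200 is the second lowest ratio of the imprinted genes in the Glp1r+ line, after Slc22a18. The sum of Mkrn3 in the Glp1r+ line is one that fewer than 6 reads in every library of that line can give, which its Lepr+ sum is not. Its actual read numbers are not known.

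Snhg14, the long paternal transcript that hosts the small nucleolar RNAs of this cluster and runs antisense through Ube3a, had 0.742 and 0.619. It overlaps Ube3a by 1803 exon bases, and without strand their reads cannot be told apart there.

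In the Dlk1-Dio3 cluster on chromosome 12 the maternally expressed noncoding RNAs lay below input and Dlk1 above it. Meg3, the noncoding RNA next to the control region of the cluster, had 0.675 in the Lepr+ and 0.564 in the Glp1r+ line. Rian, a host of small nucleolar RNAs, had 0.793 and 0.606. Mirg, a host of microRNAs, had 0.732 and 0.747. Dlk1, a transmembrane protein related to Notch ligands, had 2.45 and 2.05, with a fold of Glp1r+ over Lepr+ between 0.611 and 1.14. Rtl1, a second gene derived from a retrotransposon, had 1.52 and 1.01. Dio3, the deiodinase that inactivates thyroid hormones, had 0.300 and 0.611, the lowest ratio of all 37 genes in the Lepr+ line. Dio3 was not called, its fold of Glp1r+ over Lepr+ had an interval of 0.908 to 4.57, and its sums are ones that fewer than 6 reads in every library can give. None of the 6 genes was called, nor was Begain, a gene beside Dlk1 with ratios of 1.06 and 1.30.

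Most imprinted long noncoding RNAs lay below input in both lines (5 of 7), and most imprinted protein genes lay above it in both (20 of 30). Over all genes with a ratio other than 1, 1758 of 4632 long noncoding RNAs lay below input in both lines. For protein-coding genes, 8288 of 18395 lay above input in both. The median ratio of the 7 noncoding RNAs was 0.742 in the Lepr+ and 0.619 in the Glp1r+ line, beside 1.37 in both lines for the 30 protein genes. Meg3, Rian, Mirg, Snhg14 and Kcnq1ot1 were all below 1 in both lines, from 0.658 to 0.793 in the Lepr+ and from 0.546 to 0.747 in the Glp1r+ line. H19, a maternally expressed RNA that hosts a microRNA, was above 1 in both lines at 2.79 and 2.41, and Airn, the paternal antisense RNA that silences Igf2r, had 0.875 and 1.15. H19 and Airn carried large errors of the log2 fold change (SE of 1.01 and 0.74). None of the 7 was called. All 4632 long noncoding RNAs with a ratio other than 1 had medians of 0.889 and 1.00. The 15 entries of other well known long noncoding RNAs had medians of 0.994 in the Lepr+ and 0.928 in the Glp1r+ line. Of these entries 4 were above 1 in both lines and 7 below 1 in both. Malat1, an RNA of that list that stays in the nucleus, had 0.513 and 0.316. Gas5 had 2.63 and 1.23 and passed the threshold, with the higher ratio in the Lepr+ line (adjusted p = 0.0296, authors' DESeq2 Wald test). It was the single call in 15 such entries (6.67%), beside 3.63% of long noncoding RNAs with a ratio other than 1.

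**Figure D4:**
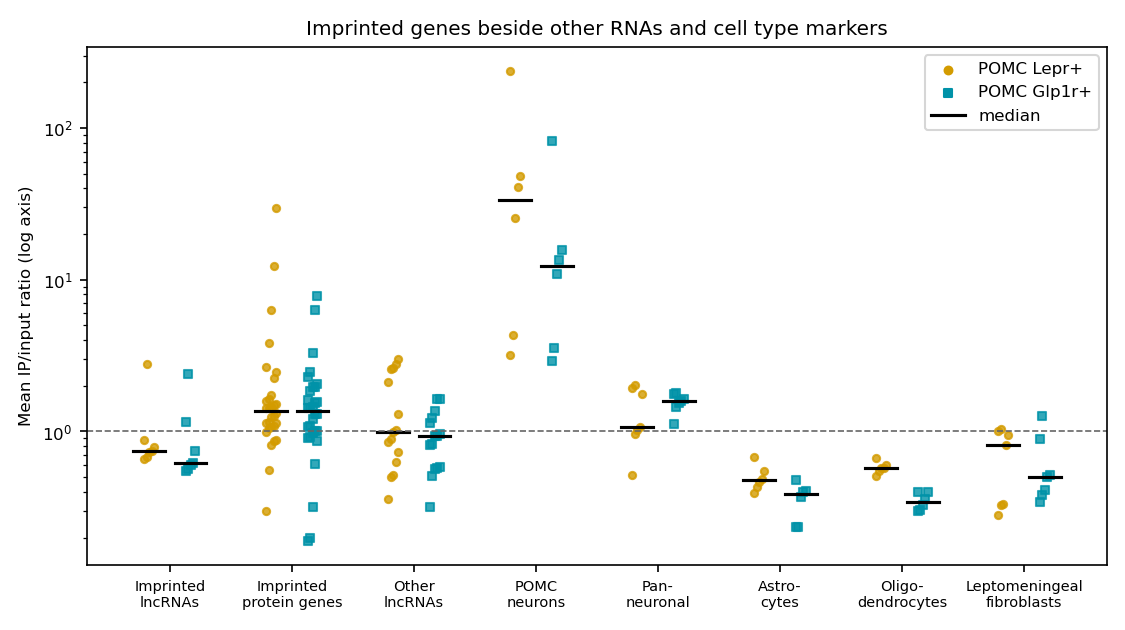
Mean IP/input ratio on a log axis for the imprinted long noncoding RNAs (7), the imprinted protein genes (30), other long noncoding RNAs (15) and marker genes of cell types, with 1 point per gene for the Lepr+ line (circles, mean of 4 pools) and the Glp1r+ line (squares, mean of 3 pools) and a bar at the median. Imprinted noncoding RNAs have medians of 0.742 and 0.619 and imprinted protein genes of 1.37 and 1.37, between the glial markers and the POMC neuron markers.

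The genes were grouped by the parental copy known for each in the mouse, which can differ by tissue and was not examined here. The 15 maternally expressed genes had median ratios of 1.08 in the Lepr+ and 1.07 in the Glp1r+ line and the 21 paternally expressed genes 1.43 and 1.43. All 3 called genes are maternally expressed (20.0% of 15, beside 2.11% of all genes and 3.02% of those with a ratio other than 1). Of the 21 paternally expressed genes 0 were called in the authors' DESeq2 analysis, and 4 had an unadjusted p under 0.05. With 3 calls in all, this split was not tested, and it changed with the setting. Peg10, which is paternally expressed, was called under 6 of the 7 alternatives run. Under both centrings Copg2 was not called, which left 2 maternally and 1 paternally expressed gene. Grb10, an adaptor that restrains insulin and growth factor receptors and is expressed from the paternal copy in neurons and the maternal copy elsewhere, had 1.42 in both lines, with an interval of the fold from 0.671 to 1.49.

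In the Peg3 cluster of chromosome 7 all 3 genes lay above input in both lines and within 1.5-fold of each other. Peg3, a zinc finger protein known for effects on maternal behaviour and body temperature, had 1.45 and 1.46. Usp29, a ubiquitin protease, had 1.13 and 1.30, and Zim1, a maternally expressed zinc finger protein, had 1.16 and 1.31. In Usp29, 14.3% of exon bases are shared with the antisense gene Zim3.

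The growth regulators of chromosomes 7 and 17 were not called. Igf2, an insulin-like growth factor listed here as paternally expressed, had 0.555 in the Lepr+ and 0.316 in the Glp1r+ line. The gene model Gm49394 shares 62.8% of the exon bases of Igf2. Igf2 was below input in both lines, in the range of the glial markers. In the brain Igf2 is known from meninges and choroid plexus, and the 7 leptomeningeal fibroblast markers ran from 0.283 to 1.05 in the Lepr+ and from 0.344 to 1.26 in the Glp1r+ line, with 4 below 1 in both. Their part in the values of Igf2 and H19 was not tested. Between Igf2 and Ascl2, Ins2, an insulin gene, had 1.00 and 0.833, with sums that fewer than 6 reads in every library can give, and Th, tyrosine hydroxylase of dopamine synthesis, had 0.562 and 0.730. Igf2r, the receptor that clears IGF2 from the cell surface, had 1.33 and 1.21. Of its imprinted neighbours on chromosome 17, Slc22a2, an organic cation transporter, had 1.98 in the Lepr+ and 0.225 in the Glp1r+ line. It was 8.79-fold higher in the Lepr+ line with an interval of 2.03 to 38.0 and was not called (adjusted p = 0.110, unadjusted p = 0.0036, authors' DESeq2 Wald test). The related transporter Slc22a3 had 1.54 and 1.55.

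Of the remaining genes, Nnat, a small membrane protein of the endoplasmic reticulum that lies inside Blcap, had 1.08 and 0.913, while Blcap, maternally expressed in brain, had 1.59 and 1.57. Impact, an inhibitor of the amino acid sensing kinase GCN2, had 1.43 and 1.53. Zdbf2, a paternally expressed gene that acts on growth after birth through the hypothalamus in mice, had 1.26 and 0.976. None of these 4 was called, and the bounds of their folds of Glp1r+ over Lepr+ lay between 0.537 and 1.53.

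The wider set of imprinted genes and the proteins that maintain imprints gave 1 call each. Among 40 other imprinted genes listed, 39 had a p-value, and Ppp1r9a was the 1 called in the authors' DESeq2 analysis. This is 2.56%, beside 2.11% of all genes and 3.02% of those with a ratio other than 1. At an unadjusted p under 0.05, Ppp1r9a included, 1 was higher in the Glp1r+ and 6 in the Lepr+ line, beside 10.2% of all genes in either direction. The median ratios of the 40 were 1.36 in the Lepr+ and 1.31 in the Glp1r+ line. Of 16 regulators of imprinting 15 had a p-value and 1 was called (6.67%, beside the same 2.11% and 3.02%). A positive log2 fold change was found for 14 of the 16, with a median of 0.37 over all 16. The called regulator was Dnmt3l, a cofactor of DNA methylation in germ cells. It had 0.232 in the Lepr+ and 1.28 in the Glp1r+ line (adjusted p = 0.0173, authors' DESeq2 Wald test). Zfp57 had 1.06 and 1.37, its partner Trim28 had 1.40 and 1.81, and the maintenance methyltransferase Dnmt1 had 1.15 and 1.40, all without a call. Uhrf1, which brings Dnmt1 to newly copied DNA, had the widest gap of these regulators, 0.701 and 7.13, with an interval of the fold of Glp1r+ over Lepr+ from 1.18 to 87.8 and no p-value in the table.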

How the data were processed

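The data comprised 14 libraries, input and ribosome-bound RNA of 7 pools of tissue. The authors aligned reads to GRCm38.p6 with STAR, estimated gene counts with Salmon 0.14.1, took the ratio of IP to input counts per pool and compared the lines with DESeq2 1.26.0. By the values, 1 was added to each count and ratios were neither scaled to library size nor corrected for depth. The deposited table holds that comparison alone: a mean score (ratio times 1000, over all pools), the authors' log2 fold change and its SE, the Wald statistic as a score, and the authors' p-values and adjusted p-values, which are missing for 1473 genes. These values were used as the authors' own, and no test between libraries was made. The paper gives paired reads of another length and another Ensembl release than the labels.

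Mean ratios of each line were solved from the mean and the fold change with 4 and 3 pools as weights, and the Lepr+ sums were whole numbers (tolerance 0.1) for all 37 genes and for 99.8% of the table. The solution was tested on simulated data. Ratios within 0.05 of 1000 on the deposited scale were taken as 1. No filter on low values was applied, so all 37 genes were kept. Coordinates are from GENCODE M21 (44116 of 44672 identifiers matched), and promoters from RefSeq (31 of 37 genes matched). Full statistics are given for genes with an adjusted or unadjusted p under 0.05 and levels for all others. Of the other lists, called genes and genes of the same clusters are given. Malat1, Zfp57, Trim28, Dnmt1, Uhrf1, Pecam1, Prl, Tbx19 and Kcnj8 fall outside that rule and were chosen once their values were known. Members and lists were chosen with earlier results of these data known. Alternatives were the genes over which p-values are adjusted, the centring of fold changes and the threshold. Python 3.11.15, numpy 2.4.6, pandas 2.3.3, scipy 1.17.1 and matplotlib 3.10.9 were used.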

Additional observations from a re-analysis of the deposited data

Results flagged for a closer look

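The IP/input ratios of 3 imprinted genes differed between POMC Glp1r+ and POMC Lepr+ neurons by the Wald test of the authors' DESeq2 analysis. Their log2 fold changes were -5.06 for Slc22a18, -1.93 for Asb4 and 0.81 for Copg2. Values of single pools were not used here, so no pool could be examined for standing apart from the others.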

How the results depend on the processing

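The number of imprinted genes called was 3 as deposited and 2 to 4 under the alternatives. Slc22a18 and Asb4 were called under every setting run. Adjusting p-values over genes with a ratio other than 1, over named genes among them, or over protein-coding genes among them (a setting chosen after seeing the data) added Peg10, with adjusted p of 0.0451, 0.0449 and 0.0430, and so did a threshold of 0.1, while a threshold of 0.01 dropped Copg2. Centring fold changes on the median of genes with a ratio other than 1 (0.05 on the log2 scale) or of protein-coding genes (0.07, chosen after seeing the data) dropped Copg2 (adjusted p = 0.0718 and 0.0859) and added Peg10 (0.0454 and 0.0371). The log2 fold changes near 0 of 4 genes changed sign under these centrings, to -0.0175 and -0.0401 for Mirg, -0.0371 and -0.0597 for Peg3, -0.0142 and -0.0368 for Ndn and -0.0458 and -0.0684 for Grb10. The share of all calls that were higher in POMC Glp1r+ neurons went from 551 of 912 to 500 of 910 and 472 of 904.

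No paired analysis was possible because values of single libraries were not used here. Filters on low counts, other normalizations and leaving out pools need such values and were not run. Depth is not known, and 3 of the 37 genes (Dio3, Phlda2 and Ascl2) had sums of ratios that fewer than 6 reads in every library can give, beside 9.69% of protein-coding genes (those at a ratio of exactly 1 left out). The sums of both lines had to meet this, so few reads in 1 line alone were not marked. Such few reads are possible for Mkrn3 and Kcnq1 in the Glp1r+ line, and no list of such genes was made.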
